A study of Mus musculus with 4 samples.

Results

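The globin genes of the mouse encode the protein chains of haemoglobin, and the members described here are Hba-x, Hba-a1 and Hba-a2 of the alpha cluster and Hbb-y and Hbb-bh1 of the beta cluster. They were chosen by name and found by matching Ensembl gene identifiers to symbols. Of the 5 listed genes, 4 have values among the 28765 genes measured, and Hba-a2 was not analysed here. The RNA-seq data come from CD-1 embryos at embryonic day 9.5 (E9.5) and hold 4 libraries, 1 for each pairing of brain or spine with control or neural tube defect (NTD). For the NTD groups the labels give male and female mice, described as 7 to 8 weeks old when supplied, fed a low-folate diet for over 8 weeks, and mothers injected intraperitoneally with 1.5 mg/kg methotrexate (MTX), a folate antagonist, on E7.5, with embryos that showed defects collected. The control libraries carry the same protocol text, and the sources used here do not say which of diet and injection the controls had, or how many embryos a library holds. With 1 library per group no difference has a replicate check, the NTD model and any difference in handling cannot be told apart, and no p-value is given.

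Red blood cells at this stage are primitive erythrocytes, large nucleated cells that arise in the blood islands of the yolk sac and reach the embryo once the heart beats. They carry embryonic haemoglobins, in which the zeta chain of Hba-x or the adult-type alpha chain of Hba-a1 and Hba-a2 pairs with the epsilon-y chain of Hbb-y or the beta-h1 chain of Hbb-bh1. As primitive cells mature, Hba-x gives way to the adult alpha genes and Hbb-bh1 gives way to Hbb-y. The adult beta genes, Hbb-bs and Hbb-bt in the reference strain, are switched on mainly in the definitive red cells that later come from the fetal liver. Genes of this kind in brain or spine tissue mark the blood that the dissected tissue held.

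The bases just before the RefSeq start of each gene (GRCm38.p6) show the promoters of the abundant members and of an adult beta gene. The gene bounds given further below are those of GENCODE M21. They begin earlier for some genes, as for Hba-x at 32276400, so that a window can lie inside them. Of 11 globin genes looked up, 8 matched an entry. The 130 bases before the start are printed 5′ to 3′ on the gene's strand, with capitals at every match, on either strand, to a motif. The motifs searched were CACCC, the box that erythroid Krüppel-like factor can bind, CCAAT, a common promoter box, GATAA, a core that GATA factors can bind, and TATAA, a form of the TATA box; none overlapped another in these windows.
Hba-x (chr11:32276470-32276599, plus strand): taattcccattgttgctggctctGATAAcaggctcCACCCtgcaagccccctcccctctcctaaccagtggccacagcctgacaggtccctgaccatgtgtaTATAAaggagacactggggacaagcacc
Hba-a1 (chr11:32283542-32283671, plus strand): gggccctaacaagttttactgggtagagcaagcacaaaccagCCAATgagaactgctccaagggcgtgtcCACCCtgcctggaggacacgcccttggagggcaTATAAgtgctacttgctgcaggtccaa
Hba-a2 (chr11:32296362-32296491, plus strand): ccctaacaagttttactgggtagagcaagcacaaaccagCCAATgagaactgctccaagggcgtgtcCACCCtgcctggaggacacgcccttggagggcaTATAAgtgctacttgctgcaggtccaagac
Hbb-y (chr7:103853208-103853337, minus strand): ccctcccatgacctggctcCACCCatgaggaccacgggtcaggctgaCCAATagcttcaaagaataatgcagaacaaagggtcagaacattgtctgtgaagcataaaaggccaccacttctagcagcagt
Hbb-bs (chr7:103827929-103828058, minus strand): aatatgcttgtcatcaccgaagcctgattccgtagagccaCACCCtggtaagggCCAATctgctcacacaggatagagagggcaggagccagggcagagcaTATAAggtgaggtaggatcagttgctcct
The 3 matched windows not printed are those of Hbb-bt, Hbb-bh2 and Hbq1b, and the windows of Hbb-bh2 and Hbq1b hold none of the 4 motifs. CACCC was in 6 of the 8 windows, CCAAT in 5, TATAA in 5 and GATAA in 1. All 5 printed windows hold CACCC letters, and CCAAT is in those of Hba-a1, Hba-a2, Hbb-y and Hbb-bs, TATAA in those of Hba-x, Hba-a1, Hba-a2 and Hbb-bs, and GATAA in that of Hba-x. In windows of this length before 32851 RefSeq starts, 33.7% held CACCC, 22.4% CCAAT, 11.4% GATAA and 12.7% TATAA. A match is a description of letters, not a binding site. The Hba-a1 and Hba-a2 entries also hold some bases past the start, inside the transcript. They were identical over all 297 bases that could be compared, before and after the start, 3 bases out of step because the annotated starts differ.

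The coding sequences, from GENCODE M21 transcripts (GRCm38), show which members can be told apart by reads. A stretch of the alpha genes around the base where the adult pair differs, coding bases 349 to 408 counted from the A of the start codon, is printed with capitals where a base differs from Hba-a1.
Hba-a1: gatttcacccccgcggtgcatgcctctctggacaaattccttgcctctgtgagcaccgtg
Hba-a2: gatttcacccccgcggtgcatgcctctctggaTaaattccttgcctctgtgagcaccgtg
Hba-x: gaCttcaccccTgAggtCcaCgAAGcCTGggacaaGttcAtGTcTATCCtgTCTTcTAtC
Hba-a1 and Hba-a2 differ at 1 of 429 coding bases, C381T (Hba-a1 base first). Of the 650 windows of 50 bases in the Hba-a1 transcript, 67.5% also occur in that of Hba-a2, so the Hba-a1 values here are uncertain and may hold reads of either gene or lack reads that matched both. Hba-x shares 63.8% of aligned coding bases with Hba-a1 and no window of 50 bases with another globin gene compared.

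For the embryonic beta pair, coding bases 28 to 87 are printed, the stretch with the most differences, with capitals where Hbb-bh1 differs from Hbb-y.
Hbb-y: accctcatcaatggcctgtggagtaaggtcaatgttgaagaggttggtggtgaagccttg
Hbb-bh1: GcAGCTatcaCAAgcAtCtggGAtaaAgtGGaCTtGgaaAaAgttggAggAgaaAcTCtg
This stretch holds 25 differences. Over the whole coding sequence Hbb-y and Hbb-bh1 are 76.4% identical, with 105 differences in 444 bases, and share no window of 50 bases. The adult pair Hbb-bs and Hbb-bt differs at 1 coding base and shares 65.8% of Hbb-bs windows, so values of those genes are best read as a sum.

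Library totals recovered from the deposited values were 16272101 to 16911677 reads. FPKM, the deposited unit, is fragments counted on a gene, divided by its length and the library total, so that levels of different genes are compared per length. Genes were compared where their mean over the 4 libraries was at least 1 FPKM, which 12940 genes and all 4 measured members passed. The labelled regions were checked against their markers. The forebrain gene Otx2 stood at 27.1 and 28.7 FPKM in control and NTD brain and at 2.21 and 0.457 FPKM in control and NTD spine, and the 3 trunk Hox genes (Hoxb9, Hoxc8 and Hoxa9) summed to 0.123, 5.45, 68.4 and 76.6 FPKM in the same order. All 6 neural tube markers were above 0 in every library. Within each tissue a region marker also differed between NTD and control. All 3 trunk genes were higher in NTD brain, with Hoxb9 at 45.4-fold (17.4 to 169) on 177 reads against 4. Otx2 was 4.85-fold lower in NTD spine (3.29 to 7.34). Otx2 in brain and Hoxb9 in spine differed less, at 1.06 and 1.11 times control. Whether the NTD and control pieces covered the same regions was not tested, nor was its part in the globin results.

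Hbb-bh1, which encodes the beta-h1 chain (ENSMUSG00000052217, chromosome 7, 103841637 to 103843164), was the most abundant member in every library. It stood at 1519 FPKM in control and 1783 in NTD brain, and 2332 in control and 1315 in NTD spine. Hbb-y, the epsilon-y chain (ENSMUSG00000052187, chromosome 7, 103851749 to 103853216), stood at 1434 FPKM in control and 1428 in NTD brain, and 2233 in control and 1128 in NTD spine. Control spine was the highest library and NTD spine the lowest for both genes. The 2 brain libraries lay between them, with counting intervals that overlap for Hbb-y (1411 to 1456 and 1405 to 1451 FPKM) and not for Hbb-bh1 (1495 to 1543 and 1757 to 1809 FPKM).

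Hba-x, the embryonic zeta chain (ENSMUSG00000055609, chromosome 11, 32276400 to 32278116), stood at 1069 FPKM in control and 1152 in NTD brain, and 1682 in control and 843 in NTD spine. Hba-a1, the adult-type alpha chain that primitive cells also use (ENSMUSG00000069919, chromosome 11, 32283511 to 32284465), stood at 432 FPKM in control and 427 in NTD brain, and 699 in control and 336 in NTD spine. The order of the libraries was that of the beta genes, with the counting intervals of both brain libraries overlapping for Hba-a1 and not for Hba-x. Among protein-coding genes Hbb-bh1 ranked 5th to 10th, Hbb-y 6th to 13th, Hba-x 10th to 23rd and Hba-a1 28th to 78th by FPKM, with the best rank in control spine and the lowest in NTD spine each time. Together the 4 genes took 0.319% of library reads in control and 0.342% in NTD brain, and 0.499% in control and 0.258% in NTD spine.

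**Figure D1:**
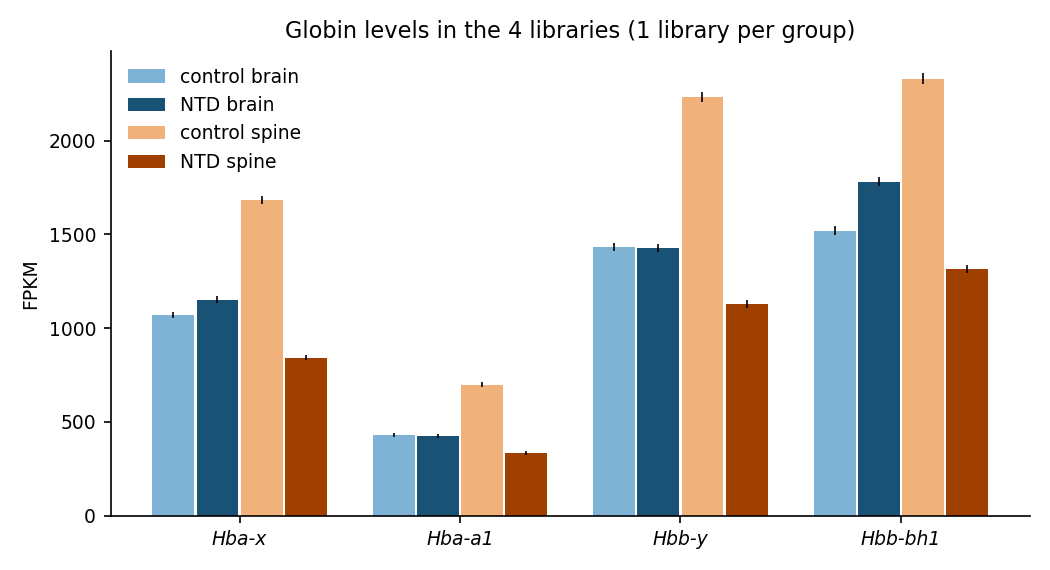
FPKM of the 4 measured members (x axis) in each library (bar colour), with 95% counting intervals as error bars and 1 library per bar. Each gene is highest in control spine, from 699 FPKM for Hba-a1 to 2332 for Hbb-bh1, and lowest in NTD spine.

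The other globin-family genes were far lower. Hbb-bs stood at 13.6 FPKM in control and 10.04 in NTD brain, and at 12.6 in control and 8.47 in NTD spine. Hbb-bt stood at 3.28, 1.90, 2.88 and 1.80 FPKM in the same order. The pseudogene Hbb-bh0, which shares no 50-base window with the other globin transcripts compared, stood at 6.07 to 15.2 FPKM on 13 to 32 reads, 2.51-fold lower in NTD spine (1.28 to 5.21). Hbb-bh2, a beta gene of low activity, had 2 to 9 reads and the theta gene Hbq1b 11 to 20. The second theta gene Hbq1a had 1 read in control brain and was at 0 elsewhere, where a count of 0 allows up to 0.299 to 0.305 FPKM. The pseudogene Hba-ps4 had 4 to 8 reads. Of the globins of other tissues, Mb, the myoglobin of muscle, had 1 to 6 reads, Ngb, the neuroglobin of neurons, 1 to 8, and Cygb, the widely expressed cytoglobin, 23 to 40. Hbb-b1, Hbb-b2, Hbb-bh3 and Hba-ps3 were not analysed here.

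**Figure D2:**
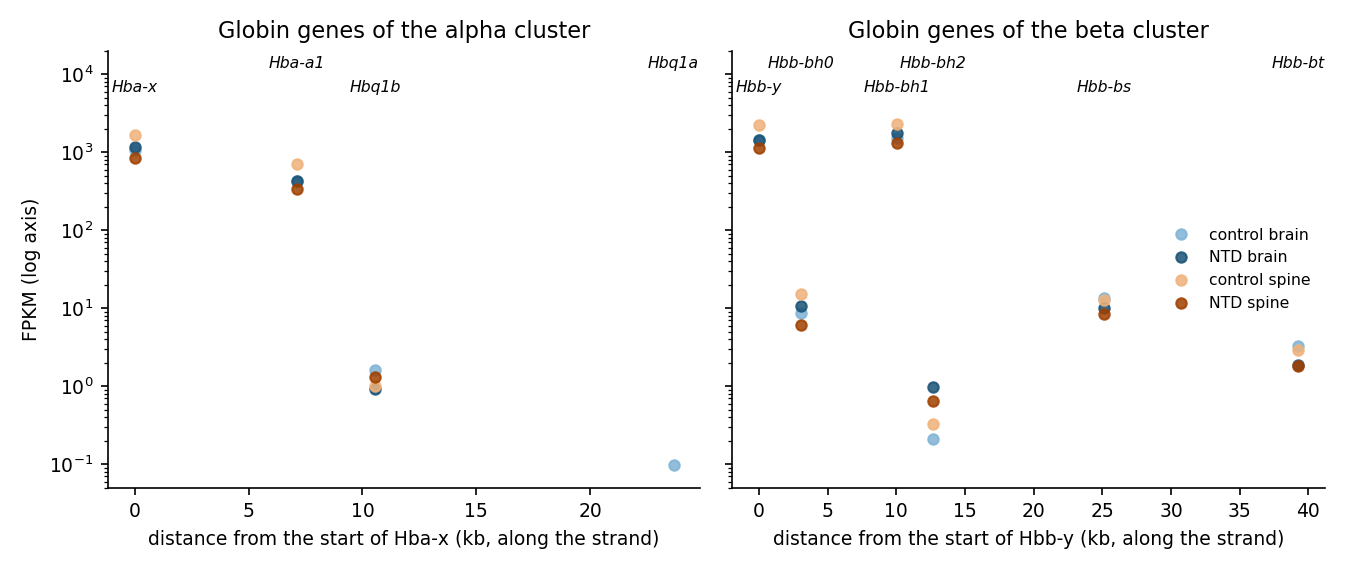
FPKM on a log axis against the distance of each gene's start from that of the first gene of its cluster, in kb along the strand, with 1 point per library; a library at 0 has no point. Hbb-y and Hbb-bh1 stand at 1128 FPKM or more in every library and the adult genes Hbb-bs and Hbb-bt at the far end of the cluster stand between 1.80 and 13.6 FPKM.

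In spine all 4 members were lower in the NTD library, by 1.77-fold to 2.08-fold. Their summed level was 6947 FPKM in control spine and 3622 in NTD spine, 1.92-fold lower (95% counting interval 1.90 to 1.94). Hba-a1 was 2.08-fold lower (2.01 to 2.16), Hba-x 1.99-fold (1.95 to 2.04), Hbb-y 1.98-fold (1.94 to 2.02) and Hbb-bh1 1.77-fold (1.74 to 1.81). On the scale of log2(FPKM + 1), used for all counts of genes, 4 of 4 were at least 1.5-fold lower, as were 2.93% of all genes compared, and the median was -0.99, beside -0.04 over all genes. At 2-fold 1 member was called, Hba-a1 at -1.06, with Hba-x at -0.995 and Hbb-y at -0.98 just inside the limit, and 0.68% of all genes were at least 2-fold lower. Intervals cover counting error alone. In tissue of this kind fewer red cells and less globin RNA per red cell cannot be told apart.

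In brain the members stayed close to control. The summed level was 4454 FPKM in control brain and 4789.9 in NTD brain, 1.08-fold higher (1.06 to 1.09). Hbb-bh1 was 1.17-fold higher (1.15 to 1.20) and Hba-x 1.08-fold higher (1.06 to 1.10). For Hbb-y the ratio of NTD to control was 0.996 (0.974 to 1.02) and for Hba-a1 0.989 (0.953 to 1.03), so neither differed beyond counting error, and the ratio of Hbb-y lay at 0.971 or 1.02 under other scalings of the libraries. None of the 4 was 1.5-fold apart on the scale of log2(FPKM + 1), where 4.58% of all genes were in either direction, and their median was 0.05, beside -0.03 over all genes. The distance between the tissues in this ratio was not tested, since each tissue has 1 pair of libraries.

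**Figure D3:**
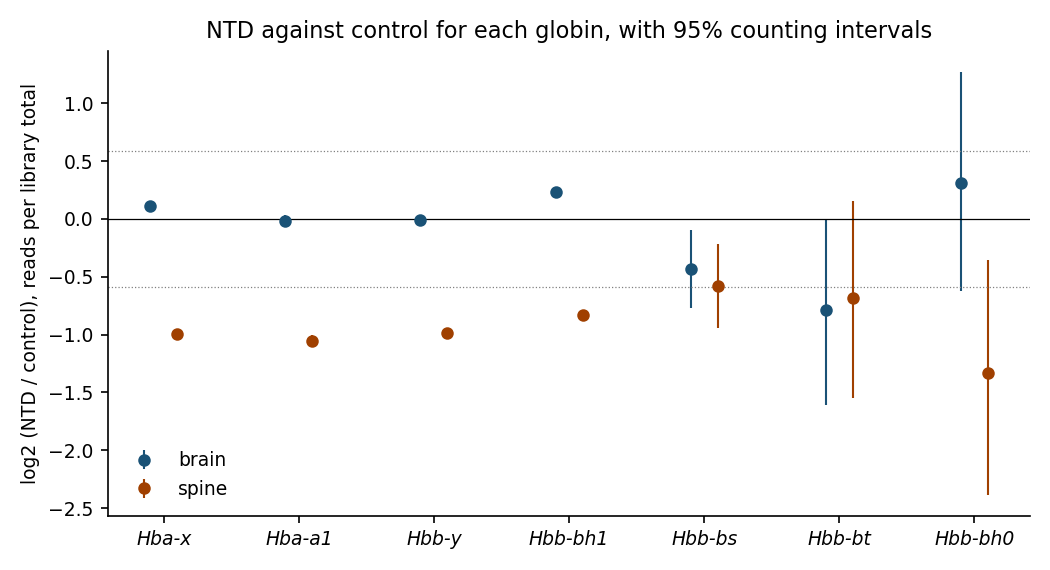
Log2 ratio of reads per library total, NTD against control, for each globin in brain and in spine, with 95% counting intervals; dotted lines mark 1.5-fold. The 4 members lie between -1.06 and -0.83 in spine and between -0.02 and 0.23 in brain, while the scarce Hbb-bs, Hbb-bt and Hbb-bh0 have wide intervals.

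The adult beta gene Hbb-bs had other ratios than the members in the brain comparison and between the control tissues, differences that were not tested. On 108 to 176 reads, Hbb-bs was lower in NTD brain by 1.35-fold (1.07 to 1.71) and lower in NTD spine by 1.49-fold (1.16 to 1.92). Hbb-bt, on 21 to 39 reads, gave folds in the same direction, 1.73 for brain (0.9986 to 3.06) and 1.60 for spine (0.901 to 2.92), whose intervals reach 1. Between the control tissues their levels were close, with a ratio of brain to spine of 1.07 for Hbb-bs (0.860 to 1.34) and 1.14 for Hbb-bt (0.697 to 1.87), where the 4 members were 1.54-fold to 1.62-fold lower in brain.

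The tissues differed in the controls and again, the other way round, in the NTD libraries. The summed level in control brain was 1.56-fold lower than in control spine (1.54 to 1.58), and 4 of 4 members were at least 1.5-fold lower, as were 5.27% of all genes. In the NTD libraries the sum was 1.32-fold higher in brain than in spine (1.31 to 1.34), from 1.27-fold for Hbb-y to 1.37-fold for Hba-x, and none of the 4 was 1.5-fold higher, as 3.41% of all genes were. These comparisons share their libraries with those of NTD against control and are no independent support for them. Control spine was the highest of the 4 libraries for every member and NTD spine the lowest.

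Ratios between members within a library do not depend on how that library was scaled. The ratio of Hbb-bh1 to Hbb-y was 1.06 in control brain (1.04 to 1.08) and 1.04 in control spine (1.03 to 1.06), and 1.25 in NTD brain (1.22 to 1.28) and 1.17 in NTD spine (1.14 to 1.20). Both NTD libraries lay above both controls, and the controls did not differ beyond counting error. The ratio was 1.18 times that of control in brain (1.14 to 1.22) and 1.12 times in spine (1.08 to 1.15). Put as a share of the embryonic beta pair, Hbb-bh1 made up 51.4% in control and 55.5% in NTD brain, and 51.1% in control and 53.8% in NTD spine.

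Base composition moves with NTD in these libraries. Across 11194 protein-coding genes the log2 ratio of NTD to control was lower at higher GC content (Spearman's rho across genes -0.39 in brain and -0.41 in spine, a description, since genes are not replicates). The transcript of Hbb-bh1 is 46.8% GC, that of Hbb-y 48.8%, that of Hba-x 55.7% and that of Hba-a1 57.2%. With the median of genes of like GC content subtracted, an adjustment chosen after seeing the data, the shift of Hbb-bh1 over Hbb-y was 1.16 in brain and 1.09 in spine. With the same adjustment the ratio of NTD to control spine was 0.543 for Hba-x, 0.527 for Hba-a1, 0.509 for Hbb-y and 0.556 for Hbb-bh1, and in brain that of Hba-a1 was 1.07.

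The ratio of Hba-x to Hba-a1 was 2.48 in control (2.40 to 2.55) and 2.70 in NTD brain (2.62 to 2.78), and 2.41 in control (2.35 to 2.46) and 2.51 in NTD spine (2.43 to 2.60). It was 1.09 times that of control in NTD brain (1.05 to 1.14) and 1.04 times in NTD spine (1.002 to 1.09). The interval of NTD spine overlaps those of both controls, and NTD brain stood above all 3 other libraries. Adjusted for GC content these shifts were 1.08 and 1.03. The share of Hba-a1 in the 2 measured alpha genes was 27.04% to 29.4%.

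Summed over clusters, Hba-x and Hba-a1 came to 0.508 of Hbb-y and Hbb-bh1 in control (0.4997 to 0.517) and 0.492 in NTD brain (0.484 to 0.5003), and 0.522 in control (0.515 to 0.529) and 0.483 in NTD spine (0.473 to 0.492). The ratio was 0.968 times that of control in NTD brain (0.945 to 0.991) and 0.925 times in NTD spine (0.903 to 0.947). With the adjustment for GC content these shifts turned to 1.04 and 1.01, and that of control brain against control spine from 0.974 to 1.01, so the direction of the cluster ratio is not settled. Its level says nothing on the balance of alpha and beta chains, since Hba-a2 is missing from the sum and the lengths behind the FPKM take in all annotated exons (938 bases for Hba-x, 812 for Hba-a1). By the length of the main coding transcript the ratio was 0.564 to 0.610.

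The adult pair Hbb-bs and Hbb-bt made up 0.567% of the 4 beta genes in control (0.496 to 0.648) and 0.371% in NTD brain (0.316 to 0.435), and 0.339% in control (0.294 to 0.391) and 0.418% in NTD spine (0.352 to 0.497). The ratio of the adult to the embryonic pair was 0.652 times that of control in NTD brain (0.529 to 0.805) and 1.24 times in NTD spine (0.988 to 1.55). Control brain stood highest, its interval just meeting that of NTD spine, and the intervals of the other 3 libraries overlap.

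**Figure D4:**
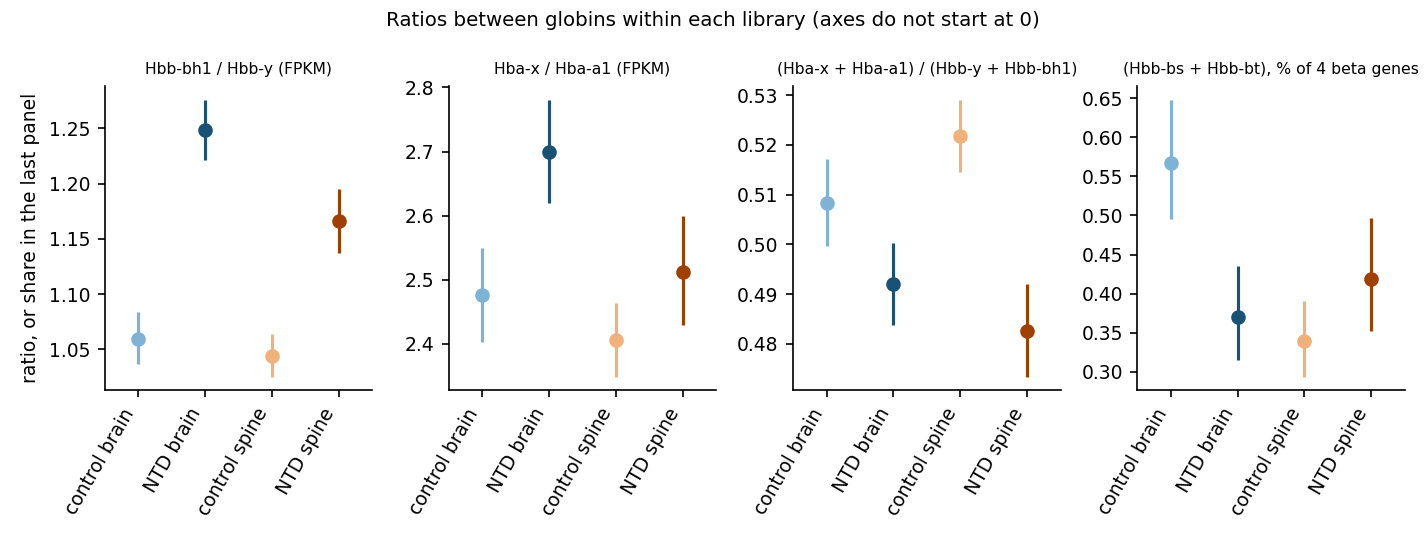
Ratios between globins within each library, as FPKM ratios in the first 3 panels and as a percent share in the last, with 95% counting intervals; the y axes do not start at 0. Hbb-bh1 over Hbb-y is 1.04 and 1.06 in the controls and 1.17 and 1.25 in the NTD libraries.

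Other erythroid genes were counted from lists. Erythroid regulators, among them the transcription factors Gata1, Klf1 and Tal1 that act on globin genes and the erythropoietin receptor Epor, had 12 of 14 members past the filter. In NTD spine 10 were lower and 2 higher, with a median of -0.28, and 4 were at least 1.5-fold lower: Gata1 at 1.90 FPKM against 3.63 in control, Klf1 at 3.78 against 6.71, Nfe2 at 1.11 against 2.80 and Epor at 2.91 against 5.59. Of the 12940 genes compared, 7509 were lower in NTD spine, 5425 were higher and 2.93% were at least 1.5-fold lower. The most abundant regulators, which other cells also use, differed less: the log2 ratio of the LIM-binding adaptor Ldb1 was -0.16, that of its partner Lmo2 0.07 and that of the GATA cofactor Zfpm1 -0.06. In NTD brain 9 were lower and 3 higher, with a median of -0.06 and none 1.5-fold apart. Of all genes compared, 7292 were lower in NTD brain, 5639 were higher and 4.58% were 1.5-fold apart.

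Haem synthesis and iron genes supply the oxygen-binding group of haemoglobin, and all 15 passed the filter. In NTD spine 13 were lower, with a median of -0.34, and 1 was at least 1.5-fold lower, a share near the 2.93% of all genes: Alas2, the erythroid form of the first enzyme of haem synthesis, at 11.1 FPKM against 19.4 in control, 1.76-fold lower (1.56 to 1.98). Alad, the next enzyme, stood at 43.6 against 64.1 FPKM and Tmem14c, a mitochondrial porphyrin carrier, at 54.9 against 78.7. The transferrin receptor Tfrc, which brings in iron, was on the other side, at 28.4 FPKM in NTD and 26.2 in control spine (1.08-fold higher, 1.03 to 1.14). Of the 12940 genes compared, 7509 were lower in NTD spine. In NTD brain 9 of the haem and iron genes were higher and 6 lower, with a median of 0.06 and none 1.5-fold apart. Of all genes compared, 5639 were higher in NTD brain, 7292 were lower and 4.58% were 1.5-fold apart. A count of none among 15 genes lies near that share. Alas2 stood at 13.5 FPKM in NTD brain against 12.6 in control, and Tfrc at 30.1 against 24.0.

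Red cell membrane and cytosol genes, the anion exchanger, spectrins, blood group proteins and enzymes of the red cell, had 18 of 20 members past the filter (19 had values). In NTD spine all 18 were lower, with a median of -0.44, and 5 were at least 1.5-fold lower: Slc4a1, the anion exchanger band 3, at 16.5 FPKM against 29.3, Sptb, the erythroid beta spectrin, at 4.28 against 6.96, Rhd at 0.718 against 3.28, Ermap at 1.77 against 3.24 and Add2, a membrane skeleton adducin, at 1.32 against 2.62. Of the 12940 genes compared, 7509 were lower and 2.93% were at least 1.5-fold lower. Prdx2, a peroxiredoxin that many cells make, stood at 106 against 119.5 FPKM. In NTD brain 11 were higher and 7 lower, with a median of 0.03 and none 1.5-fold apart. Of all genes compared, 5639 were higher in NTD brain, 7292 were lower and 4.58% were 1.5-fold apart. A count of none among 18 genes lies near that share. Car2, a carbonic anhydrase, stood at 30.1 FPKM in NTD brain against 24.0 in control. Neighbours of the alpha cluster, among them Nprl3, whose introns hold alpha globin enhancers, had medians of -0.17 in spine and -0.03 in brain over 5 genes past the filter, with none 1.5-fold apart. The 4 globins each had a lower ratio in NTD spine than the median of any of these lists, a difference that was not tested and that depends in size on the scale. A median does not hold for each gene of a list. By reads Rhd was 4.57-fold lower (2.75 to 7.95) and Nfe2 2.52-fold lower (1.83 to 3.52), beside 1.77-fold to 2.08-fold for the globins. In the other direction, 2 regulators and 2 haem and iron genes were higher in NTD spine. The pseudocount of 1 draws in genes of a few FPKM and leaves the globins nearly as they are. From FPKM ratios without it, chosen after seeing the data, the spine medians were -0.99 for the globins, -0.32 for regulators, -0.37 for haem and iron, -0.65 for red cell genes and -0.18 for the neighbours, beside -0.05 over all genes, and 12 of 18 red cell genes were at least 1.5-fold lower, as were 6.32% of all genes.

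**Figure D5:**
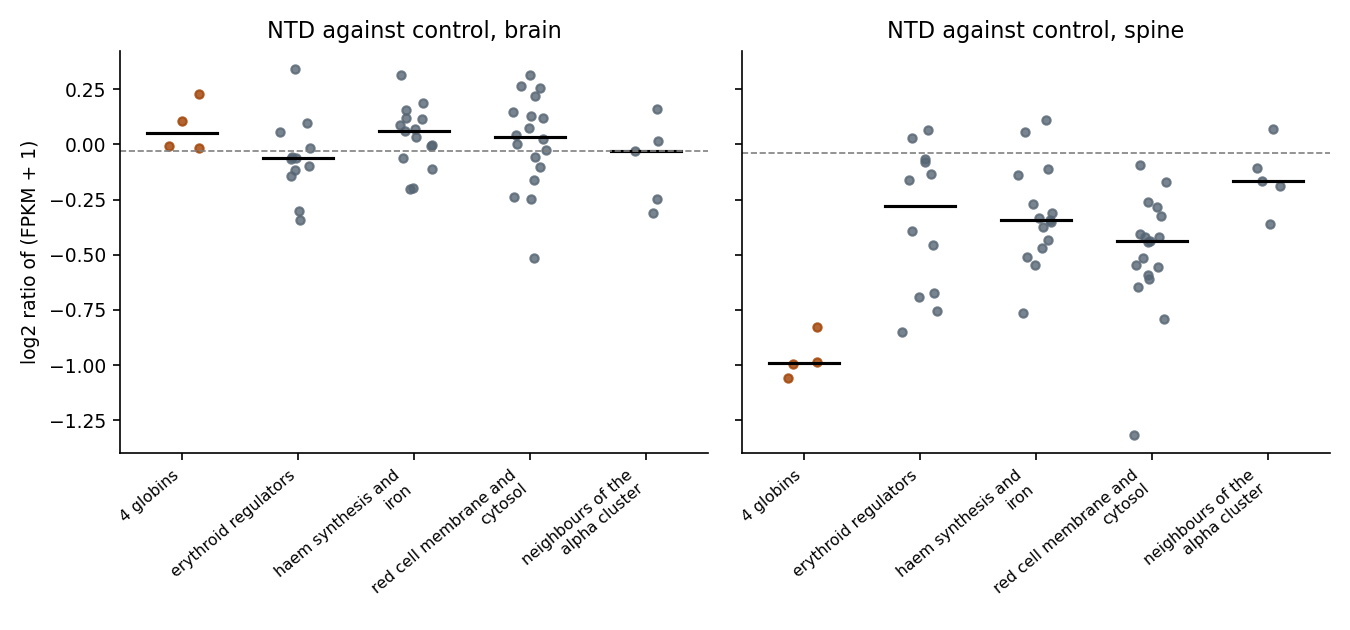
Log2 ratio of (FPKM + 1), NTD against control, for each gene of the globin set and 4 lists (points), with list medians (bars) and the median of all genes compared (dashed line). In spine the globin median is -0.99 and the list medians run from -0.44 to -0.17; in brain all medians lie between -0.06 and 0.06.

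Between the control tissues 3 of the 4 lists were lower in brain by their medians, -0.31 for regulators, -0.23 for haem and iron and -0.36 for red cell genes, while the neighbours of the alpha cluster had a median of 0.11 with 4 of 5 higher, beside -0.65 for the 4 globins and 0.01 over all genes. Regulators had 2 members at least 1.5-fold lower, Nfe2 and Zfpm1, and red cell genes 5, Slc4a1, Sptb, Rhd, Ermap and Tmod1, where 5.27% of all genes were at least 1.5-fold lower.

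The genes most like the members were named by a rule: the smallest root mean square difference of log2(FPKM + 1), centred over the 4 libraries, from the mean profile of the members, among 7223 protein-coding genes outside the family whose mean reached 5 FPKM. The first 8 were Alas2 (a difference of 0.0736), Slc4a1 (0.101), Rps2 (0.117), Cyba (0.120), C1qtnf12 (0.122), Klf1 (0.139), Hcfc1r1 (0.161) and Apoe (0.164). Alas2, Slc4a1 and Klf1 are erythroid genes of the lists above. The reads of Rps2, a ribosomal protein gene, are uncertain because processed copies of it lie elsewhere in the genome. The ratio of the summed members to Alas2 was 352 in control (323 to 384) and 355 in NTD brain (326 to 387), and 357 in control (333 to 384) and 328 in NTD spine (298 to 360), with intervals that all overlap; Alas2 was singled out for this likeness, so the steadiness is no separate result.

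Markers of other cells that the dissected tissue could hold also moved, and their part in the globin results was not tested. Endoderm and yolk sac genes (6 with values) summed to 124 FPKM in control spine and 37.3 in NTD spine, with 5 of 5 past the filter at least 1.5-fold lower, as were 2.93% of all genes. In the brain libraries they summed to 1.14 and 1.35 FPKM, with Afp, Ttr and Apoa2 at 0 in control brain and Apoa1 and Apoa2 at 0 in NTD brain, while the globins summed to 4454 and 4789.9 FPKM. Heart genes (8) summed to 50.9 FPKM in control and 214 in NTD brain, and 761 in control and 505 in NTD spine. In NTD brain 8 of 8 were at least 1.5-fold higher, as were 2.02% of all genes. In NTD spine 4 of 8 were at least 1.5-fold lower, beside the 2.93% of all genes. Neural tube genes (6) summed to 281, 219, 164 and 123 FPKM in the same order and were lower in NTD in 6 of 6 in each tissue. Of the 12940 genes compared, 7292 were lower in NTD brain and 7509 in NTD spine. Endothelial genes (10), of the vessels that carry the blood, summed to 87.4, 78.0, 98.2 and 96.5 FPKM, with 1 of 10 at least 1.5-fold lower in NTD spine (Egfl7) and none in NTD brain. Macrophage genes (8) summed to 9.99, 9.82, 8.10 and 7.75 FPKM, with none at 0 in any library and 1 past the filter. That gene, Cd68, made up most of each sum, at 6.44, 7.54, 6.99 and 7.28 FPKM. Each of the others stood at 1.14 FPKM or less in every library, so the sums do not show how those genes differed. Megakaryocyte and platelet genes (5 with values) summed to 11.2, 7.23, 11.1 and 4.87 FPKM, with Treml1 at 0 in NTD spine, and Pf4, the platelet factor 4 gene, was 2.45-fold lower there (1.66 to 3.71) on 37 reads against 89.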

How the data were processed

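RNA-seq libraries of mouse embryos (4, 1 per group) were grouped by their titles. The authors deposited FPKM for 28765 genes in 4 columns, all mapped to a library. HISAT2 2.0.1 and the build mm10 are named per the submitters' processing notes. The sources used here do not name the counter, annotation, strand setting, read length or handling of reads that match several places. Identifiers were matched to GENCODE M21 (28698 of 28765).

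Each FPKM multiplied by the gene's union exon length was a whole number of steps of a size fixed within the library, from which totals and reads per gene were recovered; 28298 genes (98.6% of those matched) were whole within 0.01 reads in all 4 libraries. Folds are ratios of reads per library total with exact (Clopper-Pearson) conditional binomial intervals at 95%. Intervals of sums, and of shifts of a ratio between libraries, came from the Poisson variance on a log scale, where an exact interval had been planned for the sums, since the sums weight genes by length. No fold was given where both counts were 3 reads or fewer. Counts of genes used log2(FPKM + 1), a mean of at least 1 FPKM and a limit of 1.5-fold or 2-fold. There was no test, since no group has replicates. The members, the lists and the limits were chosen with earlier results of these data known. The naming rule covered the members, the other globin genes, the 3 most abundant genes of each list and the 8 genes of most similar profile; members that make up a count of 5 or fewer were named after their values were seen. The code was tested on simulated reads. Python 3.11.15, numpy 2.4.6, pandas 2.3.3, scipy 1.17.1 and biopython 1.88 were used.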

Additional observations from a re-analysis of the deposited data

Results flagged for a closer look

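Some genes moved in opposite directions in brain and spine, NTD against control, beyond counting error in both tissues. With 1 pair of libraries per tissue the difference was not tested. The summed globins were at 1.08 times control in brain and 0.521 times in spine, Hba-x at 1.08 and 0.501 times, and Hbb-bh1 at 1.17 and 0.564 times. Of the other erythroid genes named, Klf1 was at 1.33 and 0.563 times control and Car2 at 1.25 and 0.789 times. Rhbdf1, a neighbour of the alpha cluster, was at 1.13 and 0.880 times. No group had the 4 samples needed to look for a sample that stands apart.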

How the results depend on the processing

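No paired analysis was possible because each group holds 1 library, and no library could be left out. Direction and side of 1.5-fold of the summed globins and of each member in spine were kept under both other scalings and the GC adjustment; so were the sums in the other 3 comparisons. The first other scaling set each library to an equal FPKM sum taken without the globins. With it the summed globins were at 1.05 (brain, NTD over control), 0.537 (spine), 0.629 (control brain over control spine) and 1.23 (NTD brain over NTD spine). With median ratio scaling they were at 1.10 and 0.536 in the first 2. Adjusted for GC content, an alternative chosen after seeing the data like that of transcript length, these were 1.11 and 0.535, and the shift of the alpha to beta ratio turned from 0.968 to 1.04 (brain), 0.925 to 1.01 (spine) and 0.974 to 1.01 (control tissues), while those of the 3 other ratios adjusted kept their direction; a pseudocount of 5 or leaving out Hba-a1 moved no sum beyond its counting interval. Genes at least 1.5-fold apart numbered 593 (brain), 567 (spine), 1058 (control tissues) and 1073 (NTD tissues). They were 143, 158, 394 and 372 with a pseudocount of 5, 1167, 1197, 1811 and 1798 without a filter, 185, 192, 366 and 398 with a filter of 5 FPKM, and 205, 172, 435 and 407 at 2-fold; with a pseudocount of 0.1 the first 2 were 1043 and 1048. From reads not divided by length, for brain (control, NTD) and then spine (control, NTD), the Hba-a1 share of alpha was 25.9%, 24.3%, 26.5% and 25.6%, the Hbb-bh1 share 50.6%, 54.7%, 50.3% and 53.03%, and the alpha to beta ratio 0.736, 0.715, 0.755 and 0.6997. By the length of the main coding transcript that ratio was 0.594, 0.575, 0.610 and 0.564. For the Hba-a1 and Hbb-bh1 shares the order of the libraries cannot change, since length enters each library by the same factor. The order for the alpha to beta ratio was the same in each. Depth limits Hbb-bt, Hbb-bh2, Hbq1a, Hbq1b and the pseudogenes, at 39 reads or fewer.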
